A study of Mus musculus with 14 samples.

Results

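The miRNAs examined were miR-199a-5p, miR-199a-3p, miR-199b-5p, miR-214-3p and miR-214-5p, 5 of the 999 mature miRNA names that the count tables list. They were chosen by name, as miRNAs associated with fibroblasts and other stromal cells, and each was listed in both tables. For whole tissue 900 names are listed and for epithelial cells 677, of which 578 are listed for both. Small RNA was sequenced from the caput, corpus and cauda epididymis, the segments through which sperm pass as they mature, in whole tissue (3 caput, 2 corpus and 3 cauda libraries) and in isolated epithelial cells (2 libraries per region). All tissue came from male inbred Swiss mice of 8 weeks, for which no genetic change or treatment is named, with blood vessels perfused with PBS, and each RNA sample pooled material from several mice. For the cell preparations, tissue cleared of spermatozoa was digested with trypsin and collagenase, and the cells still in suspension after a few hours in culture were kept, with the attached fibroblasts and muscle cells left behind. The sources used here name the replicates in places as biological and in places as technical, so p-values measure the spread between these libraries, which may be technical.

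A miRNA precursor is a hairpin whose stem is cut into a duplex of a 5p and a 3p arm, and usually one arm is loaded into an Argonaute protein while the other is degraded. Positions 2 to 8 of the loaded arm, the seed, pair with target mRNAs. The hairpins Mir199a-2 and Mir214 are made from the long non-coding transcript Dnm3os, are known for high levels in mesenchymal cells, and depend there on the transcription factor Twist1. A further copy, Mir199a-1, holds the same mature miR-199a arms at another dynamin gene, and miR-199b comes from a dynamin gene of its own.

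The mature sequences are shown because they decide which members can be told apart by their reads. They are RefSeq sequences on GRCm38.p6, written 5′ to 3′ with the seed in capitals.
miR-199a-5p: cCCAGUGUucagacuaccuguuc
miR-199a-3p: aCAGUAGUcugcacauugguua
miR-199b-3p: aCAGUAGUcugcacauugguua
miR-214-3p: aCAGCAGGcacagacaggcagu
miR-214-5p: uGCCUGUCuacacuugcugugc
miR-199a-3p and miR-199b-3p were the same at 22 of 22 positions, and a read of this arm cannot be placed at one gene. Their counts were equal in 8 of 8 whole tissue and 6 of 6 epithelial libraries, so all values of miR-199a-3p below hold for miR-199b-3p too. The 5p arms, counted under separate names, are the only members that can separate miR-199a from miR-199b. Both had fractional counts in 3 of 8 whole tissue and 1 of 6 epithelial libraries, so some of their reads may not have been told apart. No mature miR-199b-5p sequence was at hand to show. The seed of miR-214-3p was shared with miR-761, which neither table lists.

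The hairpins of Mir199a-2 and Mir214 are shown with the mature 5p arm and then the 3p arm in capitals, since the arm ratios below compare these arms. The miR-199 ratio sums the arms of Mir199a-1, Mir199a-2 and Mir199b.
Mir199a-2: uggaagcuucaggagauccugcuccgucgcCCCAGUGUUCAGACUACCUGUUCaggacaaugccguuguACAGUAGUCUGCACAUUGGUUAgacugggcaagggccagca
Mir214: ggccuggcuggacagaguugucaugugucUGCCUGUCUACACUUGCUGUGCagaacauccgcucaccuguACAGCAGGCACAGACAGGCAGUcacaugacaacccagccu
Mir199a-2 (chr1:162217814-162217923, plus strand) and Mir214 (chr1:162223368-162223477, plus strand) lay 5444 bases apart within exons of Dnm3os, antisense to Dnm3. Mir199a-1 (chr9:21496495-21496564, minus strand) lay in an intron of Dnm2 and Mir199b (chr2:32318460-32318569, plus strand) in an intron of Dnm1, each on the strand opposite to the dynamin gene. Mir199a-1 and Mir199a-2 hold the same mature arms, and the counts do not divide them.

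The whole tissue libraries held 1243398 to 2135501 counts and the epithelial libraries 89039 to 362867, so low members were counted less finely in the epithelial libraries. The members and miR-199b-3p together made up between 0.177 and 0.216% of the counts in caput whole tissue, 0.400 to 0.423% in corpus and 0.411 to 0.484% in cauda. In epithelial cells the shares were 0.266 to 0.312%, 0.398 to 0.487% and 0.548 to 0.667%. In whole tissue miR-199a-5p was the most abundant member in each region, at rank 66, 46 and 43 of the 312, 304 and 325 miRNAs with a mean count above 10 in caput, corpus and cauda. In epithelial cells miR-199a-3p took that place, at rank 54, 47 and 37, while miR-199a-5p ranked 87, 83 and 92. These ranks count miR-199a-3p apart from the identical miR-199b-3p. Summed over both names, the 3p sequence had 1637, 1512 and 1859 counts in caput whole tissue, beside 1655.5, 1153.5 and 1650 of miR-199a-5p. In corpus the sums were 2379 and 2754 beside 2057.5 and 2483, and in cauda 3793, 3718 and 3469 beside 2567, 2505 and 2390. At the low end, miR-214-5p had between 1 and 9 counts in an epithelial library and never a regional mean above 10, and miR-199b-5p had 4 and 5 counts in the corpus epithelial libraries.

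In whole tissue all 5 members were lowest in the caput. The shares of all miRNAs lowest there, or without overlap between regions, were not counted. The values that follow are CPM (a miRNA's counts relative to the library's scaled total), computed with TMM factors within each preparation, and fold changes are from limma-voom on the same scaling. miR-199a-5p stood at 1065, 796 and 906 CPM in the 3 caput libraries, 1538 and 1629 in corpus and 1321, 1542 and 1409 in cauda. Every corpus and cauda library was above every caput library, and corpus and cauda overlapped. The means were 922 ± 135 (SD, n = 3), 1583 ± 64.4 (n = 2) and 1424 ± 111 (n = 3).

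miR-199a-3p was at 526, 522 and 510 CPM in caput whole tissue, 889 and 903 in corpus, and 976, 1145 and 1022 in cauda. The 3 regions did not overlap, in the order caput, corpus, cauda. Its level rose from caput to cauda by 1.01 ± 0.09 (log2, SE; adjusted p = 3.2e-06, limma), and the smaller step from corpus to cauda, 0.22 ± 0.10, did not pass the test (adjusted p = 0.078, limma). miR-199b-5p followed the same order, with 201, 164 and 177 CPM in caput, 235 and 230 in corpus and 334, 333 and 310 in cauda. Here the second step was the larger, and miR-199b-5p was the only member above its corpus level in the cauda at an adjusted p below 0.05 (0.49 ± 0.12, adjusted p = 0.0059, limma), though by less than 2-fold.

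miR-214-3p, the arm usually meant by the name miR-214, peaked in the corpus instead. It stood at 39.2, 42.8 and 42.8 CPM in caput, 79.2 and 89.9 in corpus and 64.8, 71.4 and 51.3 in cauda, again without overlap. From caput to corpus it rose by 1.02 ± 0.18 (adjusted p = 0.00083, limma), and its cauda level was lower than its corpus level by 0.45 ± 0.17 (adjusted p = 0.042, limma), less than 2-fold. miR-214-5p was at 55.3, 60.7 and 70.3 CPM in caput, 89.7 and 108 in corpus and 83.9, 105 and 88.4 in cauda, so that caput stood apart and the other regions overlapped.

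A miRNA was called changed when its FDR was below 0.05 and its levels differed at least 2-fold. Of the 5 members 1 was called from caput to corpus (miR-214-3p, higher), where 29.9% of the 334 miRNAs tested were called and 14.1% were called higher. By limma, edgeR and DESeq2, 0 were called between corpus and cauda (27.3% of 341), where 3 members had an unadjusted and 2 an adjusted p below 0.05 in limma, beside 59.8% and 54.3% of all miRNAs tested. From caput to cauda 1 was called (miR-199a-3p, higher), where 53.2% of 355 were called and 27.9% were called higher, so the members' share was below that of all miRNAs. The FDR criterion alone was met by 5 of 5 members from caput to corpus and from caput to cauda, with increases of 0.37 to 1.02 and 0.56 to 1.01. Of all miRNAs tested, 59.3% and 79.2% met it in these comparisons, in either direction. Both calls sat at the edge of the 2-fold threshold. miR-214-3p was at 1.00 without caput library 1 and 0.98 without corpus library 2, and miR-199a-3p at 0.96 without cauda library 2, and neither was called there. With the replicate number as a block, miR-214-3p was at 0.95 and not called. In that fit miR-199b-5p from caput to corpus (0.34, adjusted p = 0.070) and miR-214-3p between corpus and cauda (-0.37, adjusted p = 0.12) did not pass the FDR criterion either (limma). Scaled by library totals instead of TMM, the median change of all miRNAs tested moved from -0.05 to 0.28 from caput to corpus and from -0.05 to 0.30 from caput to cauda. The calls then divided into 76 higher and 35 lower in corpus, against 47 and 53 with TMM, and into 115 higher and 65 lower in cauda, against 99 and 90. The members called became 3 and 2, all higher.

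**Figure D1:**
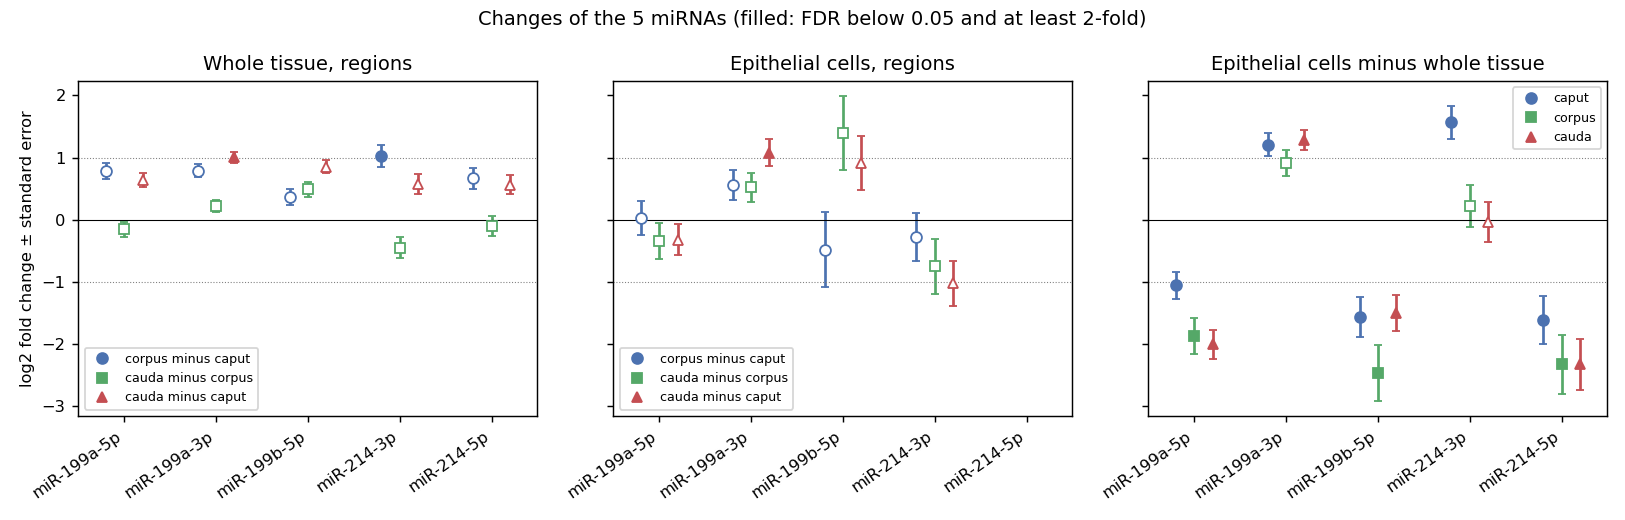
Log2 fold changes of the 5 miRNAs with their standard errors, between regions of whole tissue (left), between regions of epithelial cells (middle) and between epithelial cells and whole tissue in each region (right). Filled symbols passed an FDR below 0.05 and a 2-fold change, dotted lines mark 2-fold, and miR-214-5p has no point in the middle panel because its mean count was too low to test. On the right the 5p arms lie below 0 in each region and miR-199a-3p above.

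In isolated epithelial cells the arms of miR-199a took different courses. miR-199a-3p was at 1183 and 1289 CPM in caput, 1720 and 1920 in corpus and 3173 and 2121 in cauda, the same order without overlap as in whole tissue. It rose from caput to cauda by 1.08 ± 0.22 (adjusted p = 0.0078, limma). miR-199a-5p, the other arm, was at 429 and 480 CPM in caput, 511 and 409 in corpus and 432 and 296 in cauda. These ranges overlapped, and its caput to cauda change was -0.32 ± 0.25 (adjusted p = 0.33, limma).

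miR-199b-5p was at 56.0 and 67.7 CPM in caput, 40.6 and 40.9 in corpus and 168 and 76.4 in cauda. Both cauda libraries were above the others, but they differed from each other by more than any pair of another region, and the increase from caput of 0.91 ± 0.43 did not pass the test (adjusted p = 0.12, limma). Without cauda library 2 it was 1.42 (adjusted p = 0.018) and called, as was its difference between corpus and cauda, 1.87 (adjusted p = 0.040). miR-214-3p ran the other way, with 124 and 129 CPM in caput, 81.1 and 133 in corpus and 74.5 and 47.8 in cauda. Both cauda libraries were below every other one, and the change from caput was -1.02 ± 0.37 (adjusted p = 0.057, limma), a value from 10 to 40 counts per library. Among miRNAs with at least 10 counts in each library it was -1.15 and called (adjusted p = 0.028, limma). miR-214-5p lay between 10.2 and 28.0 CPM with all regions overlapping.

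Of the 4 members that could be tested in epithelial cells, 0 were called between corpus and caput and 0 between cauda and corpus by limma, edgeR and DESeq2, and in limma 1 had an unadjusted p below 0.05 in each (miR-199a-3p and miR-199b-5p). In these comparisons 12.2% of 205 and 10.9% of 192 miRNAs were called, and 34.6% and 30.2% had such an unadjusted p. From caput to cauda 1 of 4 was called (miR-199a-3p), beside 25.9% of 216, with 13.9% called higher. That call was lost without caput library 2 (1.18, adjusted p = 0.058) and without cauda library 1 (0.85), and fell just under 2-fold with all miRNAs of at least 1 count (0.98) and with at least 10 counts in each library (0.97). In the last of these miR-214-3p was the 1 member called, of 3 tested. The calls over all miRNAs divided into 30 higher and 26 lower, and with library totals into 39 and 19. These epithelial shares rest on few libraries. Without caput library 2 the calls over all miRNAs fell from 56 to 26, of which 8 were higher. From caput to corpus they fell from 25 to 10 without caput library 2, 13 without corpus library 1 and 16 without caput library 1. Between corpus and cauda they fell from 21 to 4 without corpus library 1, and to 8 without corpus library 2 and without caput library 2.

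The region difference itself was compared between the preparations with an interaction term over the names that both tables list. miR-214-3p, higher in cauda than caput in whole tissue and lower in epithelial cells, had an interaction of -1.60 ± 0.41 (log2, SE; adjusted p = 0.016, limma). It was the 1 member of 5 called, beside 13.2% of the 326 miRNAs tested and 4.60% in its direction. This split of the calls over all miRNAs, 28 higher and 15 lower, turned to 15 and 20 with size factors, 18 and 20 with library totals, 15 and 18 with DESeq2's Wald test and 9 and 32 of 350 with names joined between the tables. It was even, 14 and 14, with all miRNAs of at least 1 count, and 8 and 7 with at least 10 counts in each library. Without epithelial caput library 1 the calls fell from 43 to 23, of which 7 were lower, and without epithelial cauda library 1 to 26, of which 10 were lower. It was not called without epithelial caput library 2 (-1.48, adjusted p = 0.055) or epithelial cauda library 2 (-1.22, adjusted p = 0.074), and it was called under each of the 9 other settings. miR-199a-5p moved in the same direction at -0.95 ± 0.32 (adjusted p = 0.053, limma) and was called with other scalings, between -1.11 and -1.15, and without whole tissue caput library 1 (-1.12) or cauda library 1 (-1.02). For miR-199a-3p and miR-199b-5p the interaction was 0.08 ± 0.25 and 0.06 ± 0.43 and its sign depended on the scaling.

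Between the preparations the members separated by arm. On a scale common to all 14 libraries, the 5p arms were lower in epithelial cells and miR-199a-3p was higher. Averaged over the regions, miR-199a-5p was lower by 3.12-fold (-1.64 ± 0.14, adjusted p = 1.3e-07, limma) and miR-199b-5p by 3.59-fold (-1.84 ± 0.21, adjusted p = 1.7e-06). miR-214-5p stood at -2.09 ± 0.24, a value that rests on 1 to 9 counts in an epithelial library and on a miRNA that reached the count filter through whole tissue alone, and its size and test are not relied on here. miR-199a-3p was 2.19-fold higher (1.13 ± 0.11, adjusted p = 3.6e-07, limma), and miR-214-3p was higher by 0.59 ± 0.18 (adjusted p = 0.010), under the 2-fold limit. With the replicate number as a block, the miR-214-3p difference was 0.68 and did not pass the FDR criterion (adjusted p = 0.066, limma). The miR-199a-3p difference fell short of 2-fold among miRNAs with at least 10 counts in each library (0.94) and with names joined between the tables (0.9987). In total 4 of 5 members were called, 3 lower (miR-214-5p among them) and 1 higher, beside 35.9% of 326 miRNAs, with 21.8% lower and 14.1% higher. This split, 71 lower and 46 higher, turned with all miRNAs of at least 1 count, where 80 were lower and 238 higher of 577. Of the 4 members whose mean count was above 10 in both preparations, 3 were called, 2 lower and 1 higher. The share of all miRNAs called under that filter was not counted. Preparation, deposited table, mice pooled and depth cannot be told apart here. As in any bulk sample, fewer cells of a type and less RNA per cell cannot be told apart either.

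**Figure D2:**
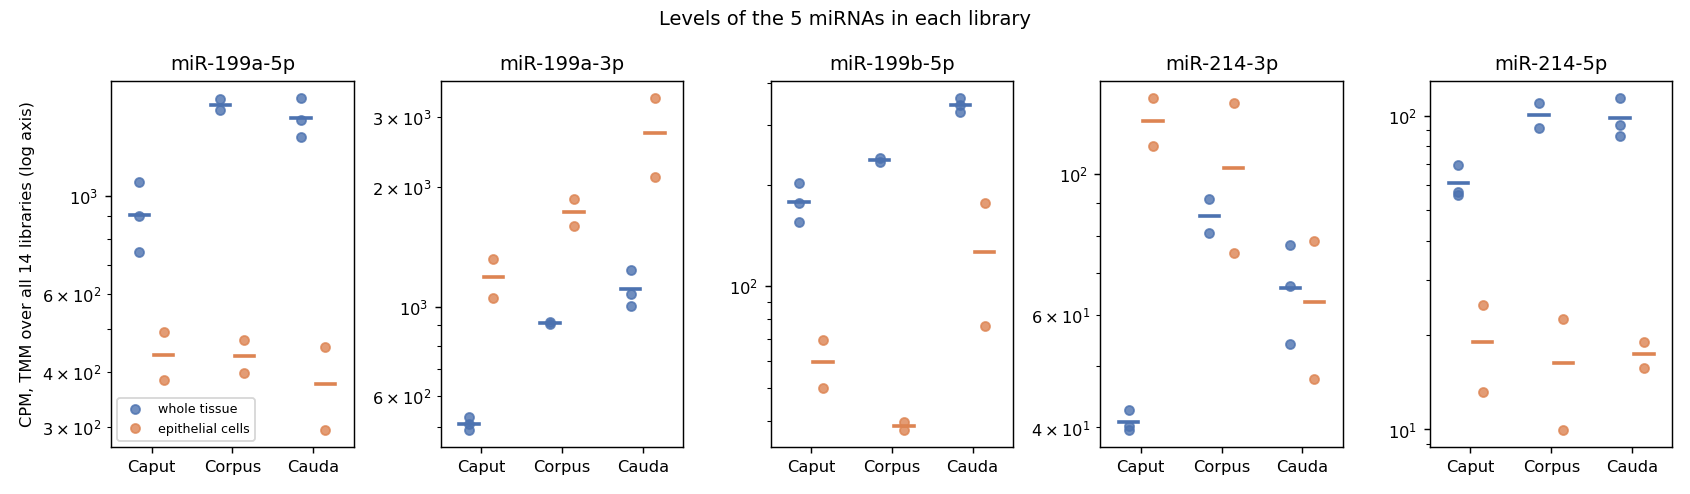
Level of each miRNA in each of the 14 libraries, in CPM with TMM factors over all libraries together, on a log axis whose range differs between panels. Points are libraries, lines are group means, blue is whole tissue and orange isolated epithelial cells. For miR-199a-5p, miR-199b-5p and miR-214-5p the epithelial libraries of a region lie below those of whole tissue, for miR-199a-3p above, and for miR-214-3p above in the caput alone.

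Region by region, all 5 members were called in caput, 3 lower and 2 higher, beside 35.3% of 326 miRNAs (21.2% lower, 14.1% higher). In corpus 3 were called, all lower, beside 25.5% (16.3% lower), and without epithelial corpus library 2 the calls over all miRNAs fell from 83, of which 53 were lower, to 43, of which 23 were lower. With size factors and with the Wald test miR-199a-3p was called higher there too (1.03 and 1.04). In cauda 3 were lower and 1 higher, beside 35.6% (17.8% in each direction). The cauda call of miR-199a-3p was lost with at least 10 counts in each library (0.87) and with names joined (0.87). The lower calls include members that passed the filter through whole tissue alone, miR-214-5p in each region and miR-199b-5p in corpus. Of the members with a mean count above 10 in both preparations, 4 of 4 were called in caput, 1 of 3 in corpus (miR-199a-5p) and 3 of 4 in cauda. The shares of all miRNAs called under this stricter filter were not counted. The even split of the cauda calls, 58 and 58, became 39 higher and 108 lower of 350 with names joined and 47 higher and 71 lower with size factors. In corpus, 30 higher and 53 lower became 38 and 38 with size factors and 27 and 28 with the Wald test. With all miRNAs of at least 1 count, the higher calls were the more in each region, with 162, 205 and 172 against 72, 61 and 86 lower. The mean of miR-199a-5p on the common scale was 908 ± 163 CPM in caput whole tissue (SD, n = 3) and 437 ± 77.0 in caput epithelial cells (n = 2), and in the cauda 1508 ± 156 (n = 3) and 375 ± 114 (n = 2). Its difference was -1.06 ± 0.21 for caput, -1.87 ± 0.28 for corpus and -2.01 ± 0.24 for cauda. The caput value was at the edge of 2-fold and stayed called in 4 of 9 other settings. Among the settings without the call were other scalings, at -0.99 and -0.92. miR-214-3p was at 40.8 ± 1.57 CPM in caput whole tissue and 121 ± 14.9 in caput epithelial cells, a difference of 1.57 ± 0.26 (adjusted p = 0.00022, limma). In the cauda its means were 66.2 ± 11.6 and 63.1 ± 21.9 CPM and its difference -0.03 ± 0.32 (adjusted p = 0.94, limma), so that the caput gap was not seen there.

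Leaving out 1 library changed some of these regional calls. The caput call of miR-199a-5p was lost without whole tissue caput library 1 (-0.87), corpus library 2 (-0.99) or cauda library 3 (-0.98), and without epithelial caput library 1 (-0.87). The calls of miR-214-5p were lost without epithelial library 2 of the region, at -1.22 in caput (adjusted p = 0.053, limma) and -1.94 in corpus (adjusted p = 0.056). The cauda call of miR-199a-3p was lost without epithelial cauda library 1 (0.94). The members called thus ranged from 4 to 5, 2 to 3 and 3 to 4 in caput, corpus and cauda.

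The ratio of the arms within a library needs no scaling. For miR-199 it was taken as the summed counts of miR-199a-3p and miR-199b-3p over those of miR-199a-5p and miR-199b-5p, with 0.5 added to each side. In whole tissue this ratio was 0.832, 1.09 and 0.943 in caput, 1.00 and 0.972 in corpus and 1.18, 1.22 and 1.19 in cauda, close to equal arms. In epithelial cells it was 4.87 and 4.70 in caput, 6.21 and 8.46 in corpus and 10.6 and 11.3 in cauda. No epithelial library came near a whole tissue library. The difference of 2.80 (log2), or 6.97-fold, was the largest of all 600 arrangements of the preparations within regions (exact permutation p = 0.0017, two-sided, the smallest possible, 0.005 after adjustment over 6 such tests).

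miR-214-3p over miR-214-5p gave 0.711, 0.706 and 0.611 in caput whole tissue, 0.884 and 0.836 in corpus and 0.774, 0.679 and 0.581 in cauda. In epithelial cells the values were 4.26 and 9 in caput, 3 and 9 in corpus and 4.56 and 2.33 in cauda. The 5p arm thus had more counts in 8 of 8 whole tissue libraries and the 3p arm in 6 of 6 epithelial libraries. The difference was 2.69, or 6.45-fold (exact permutation p = 0.0017, the smallest possible, adjusted 0.005). Its size and test rest on 1 to 9 counts of miR-214-5p in an epithelial library and, like those of that member above, are not relied on here. The epithelial counts were few. In corpus library 2, for example, 13 of 14 miR-214 counts were of the 3p arm (92.9%, exact 95% binomial interval 66.1 to 99.8%), and in cauda library 2 10 of 14 (71.4%, 41.9 to 91.6%). In whole tissue the highest share was 106 of 226 in corpus library 1 (46.9%, 40.3 to 53.6%). Such intervals cover counting error only, since reads were amplified by PCR without molecular identifiers.

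**Figure D3:**
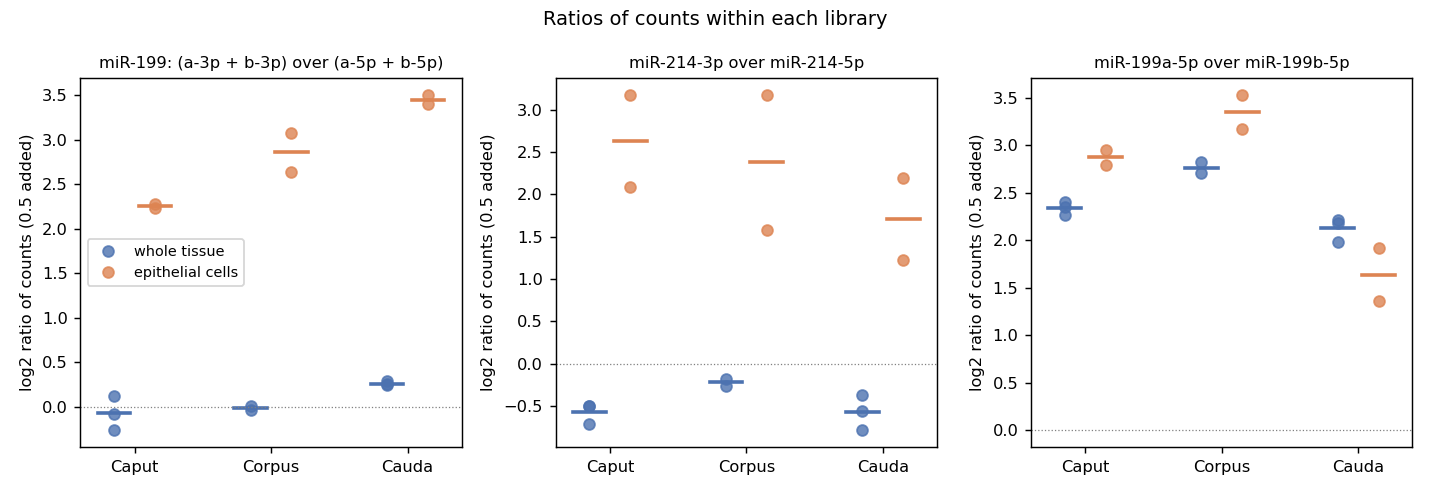
Log2 ratios of counts within each library for the arms of miR-199 (left), the arms of miR-214 (middle) and miR-199a-5p over miR-199b-5p (right), by region. Points are libraries, lines are group means, and 0 marks equal counts. The epithelial libraries lie at 2.23 to 3.50 against -0.26 to 0.29 for the arms of miR-199, and at 1.22 to 3.17 against -0.78 to -0.18 for those of miR-214.

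Along the duct, the 3p share of miR-199 was higher in cauda than caput in both preparations. The ratio differed by 0.76 (log2), or 1.70-fold, with regions permuted within preparation (exact permutation p = 0.017, the smallest of 120 arrangements, adjusted 0.025). With whole tissue labels swapped only between libraries of the same replicate number, which were taken as paired, 48 arrangements remain and the smallest exact p they allow, 0.042, was reached, but the adjusted p of 0.0625 did not pass 0.05. Within whole tissue the difference was 0.34 and within epithelial cells 1.19, in each case without overlap, and the smallest exact p these groups allow alone (0.10 and 0.33, two-sided) was reached. For miR-214 the ratio was not shown to differ between cauda and caput (-0.46, exact permutation p = 0.43, adjusted 0.43).

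The balance of the miR-199 genes was read from miR-199a-5p over miR-199b-5p, as far as their reads were told apart. It had its own order of regions. In whole tissue the ratio was 5.31, 4.83 and 5.12 in caput, 6.53 and 7.09 in corpus and 3.96, 4.63 and 4.55 in cauda, and in epithelial cells 7.72 and 6.95, 11.5 and 9, and 2.56 and 3.79. In both preparations the corpus was highest and the cauda lowest, without overlap between regions. The epithelial corpus values rest on 5 and 4 counts of miR-199b-5p, so the place of the corpus there is uncertain. Cauda minus caput was -0.73 (log2), a ratio 1.65-fold lower (exact permutation p = 0.017, the smallest of 120 arrangements, adjusted 0.025, or 0.042 and 0.0625 with whole tissue pairs kept), with -0.22 within whole tissue and -1.23 within epithelial cells. Between the preparations this ratio was not shown to differ (0.21, exact permutation p = 0.28, adjusted 0.33).

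To set the arm shift against other hairpins, it was computed for 70 precursors, a comparison chosen after the shifts of miR-199 and miR-214 were seen. Both arms had the same names in both tables and a mean of at least 1 count in each. In each preparation, at least 1 arm had a regional mean count above 10. miR-199b was at rank 2 (2.99, log2, its 3p count shared with miR-199a), miR-199a at rank 4 (2.78) and miR-214 at rank 5 (2.69) in the direction of the 3p arm. The rank of miR-214 rests on 1 to 9 counts of miR-214-5p in an epithelial library and is not relied on. Of the other 67 precursors, 11 (16.4%) had a higher 3p over 5p ratio in every epithelial library than in any whole tissue library, 6 (8.96%) a lower one, and 50 overlapped. Their median shift was -0.12 and their range -5.47 to 3.15. miR-210 and miR-221 were at rank 1 and 3.

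**Figure D4:**
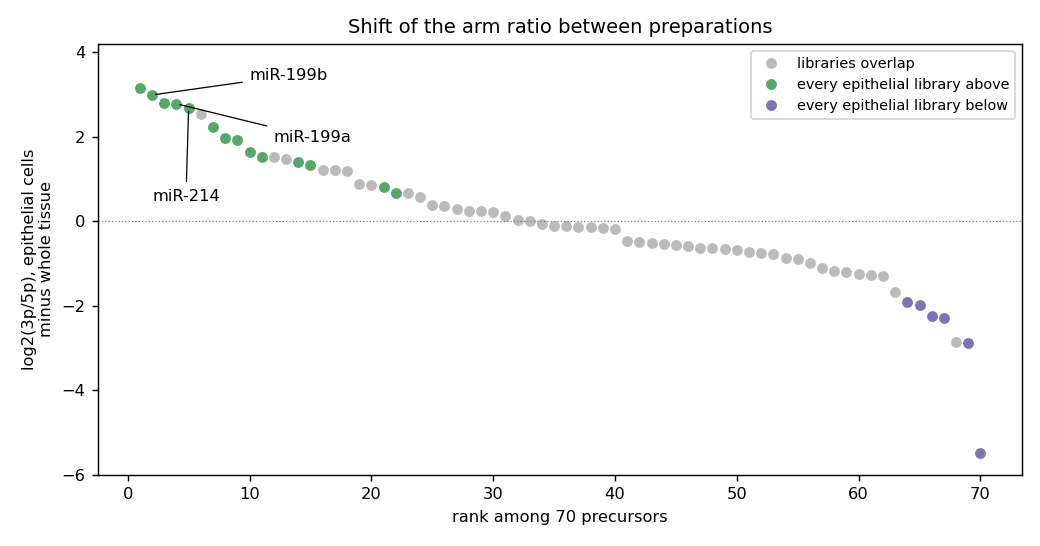
Shift of log2(3p/5p) from whole tissue to epithelial cells for 70 precursors in order of size. Green points had every epithelial library above every whole tissue library, purple points every one below, and grey points overlapped. The miR-199a, miR-199b and miR-214 hairpins lie at 2.78, 2.99 and 2.69, at the upper end.

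The label of the members as stromal was compared with other miRNAs known from mesenchymal cells, a list of 21 names. In whole tissue 6 of the 19 tested were called higher in cauda than caput and 1 lower, beside 27.9% higher and 90 of 355 lower over all miRNAs, with a median change of 0.40 beside -0.05. In epithelial cells 6 of 16 were called higher and 1 lower, beside 13.9% higher and 26 of 216 lower, with a median of 0.46 beside -0.001. The higher ones in both were miR-379-5p, miR-411-5p and miR-434-3p, made with many others from the imprinted Dlk1-Dio3 region, and miR-199b-3p, which has the counts of miR-199a-3p and so adds a member's own result to the list. The lower ones were miR-10b-5p in whole tissue (-1.37) and miR-574-3p in epithelial cells (-1.59). The summed level of the list fell in whole tissue, from 152400 to 162800 CPM (library totals) in caput to 102500 to 108800 in cauda. In epithelial cells the sums overlapped, at 122100 to 133800 in caput and 103400 to 123900 in cauda. Between the preparations 3 of 18 were called higher in epithelial cells (miR-140-3p, miR-140-5p and miR-199b-3p) and 2 lower (miR-411-5p at -2.29 and miR-434-3p at -1.06), beside 14.1% higher and 21.8% lower, with a median of 0.08 beside -0.10. The list as a whole, like the members, thus showed no single direction between the preparations.

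Marker miRNAs of other cell types moved with the same comparisons. In whole tissue, corpus sums were above those of caput for smooth muscle, striated muscle, red blood cell, leukocyte and germ cell names. They overlapped for endothelial and epithelial names. Between cauda and caput of whole tissue, 4 of 4 smooth muscle names tested were called higher, their summed level going from 45410 to 58960 CPM (library totals) in caput to 248600 to 270500 in cauda. In the same comparison 5 of 5 striated muscle, 3 of 3 red blood cell, 3 of 5 leukocyte and 7 of 9 germ cell names were called higher, 0 of 2 endothelial names were called, and 5 of 7 epithelial names were called lower, beside 27.9% higher and 90 of 355 lower over all miRNAs. The summed level went from 3648 to 4435 CPM in caput to 10420 to 13250 in cauda for germ cell names and from 18730 to 20140 to 9166 to 10910 for epithelial names. In epithelial cells 0 of 3 smooth muscle, 0 of 2 endothelial and 0 of 7 epithelial names were called between cauda and caput. The red blood cell names (3 of 3), the leukocyte names (2 of 2) and 2 of 6 germ cell names were called higher, beside 13.9% of all miRNAs. Their part in the changes of the members was not tested.

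Against whole tissue, 3 of 7 epithelial names were called higher in isolated cells, with miR-205-5p, a miRNA of basal cells, higher by 3.34 ± 0.08 (log2), while miR-141-3p (-0.53) and miR-200a-3p (-0.28) were lower by less than 2-fold. Called higher too were miR-133a-3p (2.55) and miR-133b-3p (2.15), of 4 striated muscle names tested, and miR-150-5p (1.00) and miR-155-5p (2.08), of 3 leukocyte names, the third of which, miR-223-3p, was called lower (-1.62). Over all miRNAs 14.1% were called higher and 21.8% lower. The summed level of the leukocyte names was 449 to 766 CPM in caput epithelial cells against 863 to 990 in caput whole tissue, 562 to 684 against 1249 to 1589 in corpus and 1504 to 1614 against 2129 to 2209 in cauda, lower in each region. That of the striated muscle names was 334 to 345 against 27.6 to 29.9 in caput, 574 to 640 against 66.0 to 193 in corpus and 357 to 441 against 155 to 1137 in cauda. The 1 red blood cell name tested was not called, and the summed level of the red blood cell names was 354 to 402 CPM in epithelial cells against 71.2 to 85.1 in whole tissue in caput, 205 to 449 against 252 to 292 in corpus and 1832 to 2778 against 909 to 1420 in cauda. The endothelial names, spelled differently in the tables, were not tested. Their summed level was 24380 to 31660 CPM in caput epithelial cells against 12420 to 16310 in caput whole tissue, 13890 to 14400 against 15290 to 15870 in corpus, and 53720 to 54540 against 17810 to 19300 in cauda, so that it was higher in caput and cauda and lower in corpus. Germ cell names were called lower in 4 of 9. The summed level of the smooth muscle names was 128000 to 187000 CPM in caput epithelial cells against 45410 to 58960 in whole tissue, 205800 to 231000 against 83590 to 86490 in corpus and 185000 to 319300 against 248600 to 270500 in cauda, with 1 of the 2 names tested called higher. The summed level of the mesenchymal list was lower in every epithelial library of caput (122100 to 133800 CPM against 152400 to 162800) and corpus (127600 to 136300 against 158900 to 171800), and overlapped in cauda (103400 to 123900 against 102500 to 108800). Several names of the mesenchymal list, such as miR-10b-5p and miR-21, are abundant in other cells too, and the part of stromal RNA in the levels of the members was not tested.

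The miRNAs whose levels ran most like miR-199a-3p were found by the correlation of log2 CPM over all libraries of a preparation, which share region and scaling. In whole tissue (8 libraries) these were miR-342-3p (Pearson r = 0.99), miR-196a-5p (0.98), miR-196b-5p (0.98), miR-335-5p (0.98) and miR-465a-3p (0.98), each above the members. In epithelial cells (6 libraries) they were miR-127-3p (0.98), miR-342-3p (0.96), miR-30a-3p (0.95), miR-410-3p (0.94) and miR-99a-5p (0.93). Among the members themselves, r over the whole tissue libraries was 0.895 between the arms of miR-199a and 0.896 between those of miR-214, and over the epithelial libraries -0.31 and -0.22. The arms of a hairpin ran together over the whole tissue libraries, and those of miR-199a did not over the epithelial ones. For miR-214 the epithelial value rests on 1 to 9 counts of miR-214-5p in a library, too few to show whether its arms ran together. The difference between the preparations was not tested.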

How the data were processed

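The authors sequenced small RNA from 14 samples and deposited unnormalized expected counts of mature miRNAs in 1 table per preparation, with 0.001 added to each value of the epithelial table. The submitters' processing notes name CASAVA 1.8.2, Bowtie 1.1.1 and limma, and the build is mm10 (GRCm38). How reads that match several miRNAs were divided is not given in the sources used here. The added constant was removed and the expected counts were rounded to whole numbers for the tests (0.5 to the even number). No column of the tables was left out (0). Groups came from the sample titles.

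Counts were scaled by TMM (edgeR 4.0.16) and tested in R 4.3.3 with voom from limma 3.58.1. There was 1 fit for each preparation and 1 joint fit over the shared names for comparisons between preparations. A fit covered miRNAs with a mean count above 10 in any of its groups. Within a preparation, only those above 10 in a region compared were tested, and in the joint fit all were. Benjamini-Hochberg adjustment was over all miRNAs tested. Calls needed a difference of at least 2-fold with an FDR below 0.05. The replicate numbers in the titles were checked for pairing by correlating deviations from the group mean between libraries of the same number. For whole tissue caput and cauda all 3 pairs were above 0.1 (0.22, 0.12 and 0.12), and for the other comparisons fewer than 3 pairs or lower values were found. Arm ratios were compared by exact permutation, and between cauda and caput also with these whole tissue pairs kept. The methods were tested on simulated data. The alternatives were edgeR's quasi-likelihood test, DESeq2 1.42.0 and its size factors, library totals, other count filters, a replicate block, fits of only the groups compared, miR-199a-3p and miR-199b-3p summed, names joined between the tables, and each library left out in turn.

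The members, marker lists and tests were chosen with earlier results of these data known. The miRNAs named are the members, miR-199b-3p, markers from the lists needed to read a result, the 5 most like miR-199a-3p in each preparation, and miR-210 and miR-221, chosen after their values were seen.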

Additional observations from a re-analysis of the deposited data

Results flagged for a closer look

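The change of miR-214-3p from caput to cauda differed between the preparations. In whole tissue it was 0.57 ± 0.16 (log2, SE) and in epithelial cells -1.02 ± 0.37, and the interaction term was -1.60 ± 0.41 (adjusted p = 0.016, limma). The epithelial value rests on 40 and 40 counts in caput and 20 and 10 in cauda.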

How the results depend on the processing

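The number of members called moved with the scaling and the filter. With library totals it was 3 (corpus minus caput, main value 1) and 2 (cauda minus caput, main value 1) in whole tissue, 2 for cauda minus caput in epithelial cells (main value 1) and 2 for the interaction (main value 1). The interaction also gave 2 with DESeq2's size factors, DESeq2's Wald test, all miRNAs with at least 1 count, at least 10 counts in every library and names joined, the second being miR-199a-5p. With all miRNAs of at least 1 count, epithelial cauda minus caput gave 0. Under the filter of 10 counts in each library, 3 members could be tested, and epithelial cells minus whole tissue gave 1 called as a mean over regions, 3 in caput, 1 in corpus and 1 in cauda, against 4, 5, 3 and 4. The same filter reduced the calls over all miRNAs from 117 to 32, from 115 to 34, from 83 to 38 and from 116 to 39, as fewer were tested, and the interaction calls from 43 to 15. It gave 64 instead of 100 and 115 instead of 189 for corpus and cauda minus caput in whole tissue, and 28 instead of 56 for cauda minus caput in epithelial cells. With every miRNA of at least 1 count these preparation contrasts gave 318, 234, 266 and 258 calls, the interaction 28, and epithelial corpus minus caput and cauda minus corpus 53 and 37, against 25 and 21. DESeq2's Wald test called 55 in corpus epithelial cells minus whole tissue. Joining 30 names that differ between the tables by a letter moved the median of all miRNAs by -0.43 for cauda and by -0.53 for the interaction. Values near 0 changed sign. For miR-199a-5p in epithelial corpus minus caput these were -0.11 (at least 1 count) and -0.0091 (at least 10 counts). For the interaction of miR-199a-3p they were -0.12 (size factors), -0.078 (library totals), -0.10 (Wald), -0.11 (at least 1 count), -0.30 (at least 10 counts) and -0.41 (names joined), and for miR-199b-5p -0.14, -0.072, -0.0145, -0.12 and, with names joined, -0.41. The cause was not tested.

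Outside whole tissue caput and cauda the replicate numbers were not taken to pair the libraries: deviations of same-numbered libraries correlated at -0.007 and -0.014 between caput and corpus and at 0.23 and 0.15 between corpus and cauda of whole tissue, and at -0.14 to 0.20 in epithelial cells. In the preparations, 6 of 8 and 4 of 6 libraries correlated best with one of their own number. With a replicate block whole tissue corpus minus caput had 0 members called (miR-214-3p at 0.95) and 102 of all miRNAs, against 100, the cauda difference of miR-214-3p between preparations was 0.0287, and no other count of members called changed. With whole tissue pairs kept, an alternative chosen after seeing the data, the cauda minus caput arm ratios of miR-199 (0.76) and of miR-199a-5p over miR-199b-5p (-0.73) had an adjusted p of 0.0625 (exact permutation), above 0.05. With the numbers crossed, an alternative chosen after seeing the data, epithelial cauda minus corpus had 32 calls over all miRNAs against 21, and cauda minus caput 64 against 56.

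With 1 library left out in turn, a lone library being assumed to vary like the others, the members called ranged from 0 to 1 for corpus and for cauda minus caput in whole tissue, from 0 to 1 for cauda minus corpus and 0 to 2 for cauda minus caput in epithelial cells, and from 0 to 2 for the interaction. Signs changed for whole tissue miR-214-5p in cauda minus corpus (-0.20 to 0.042), for epithelial corpus minus caput of miR-199a-5p (-0.14 to 0.21) and miR-214-3p (-0.56 to 0.10), for miR-214-3p between preparations in corpus (-0.13 to 0.50) and cauda (-0.39 to 0.18), and for the interaction of miR-199a-3p (-0.27 to 0.44) and miR-199b-5p (-0.57 to 0.67). Over all miRNAs, calls then ranged from 4 to 27 for cauda minus corpus, from 10 to 30 for corpus minus caput and from 26 to 60 for cauda minus caput in epithelial cells, from 23 to 46 for the interaction and from 43 (without epithelial corpus library 2) to 94 for corpus epithelial cells minus whole tissue. The arm ratios of miR-199 and miR-214 between preparations, and of miR-199 between cauda and caput, kept direction and an unadjusted exact p below 0.05 in each of these fits, at 2.73 to 2.88, 2.43 to 2.95 and 0.72 to 0.81. Epithelial depth limits miR-214-5p and miR-199b-5p most.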
